A study of Mus musculus with 2 samples.

Results

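The B lineage cells of mouse gonadal white adipose tissue (gWAT) were examined in single-cell RNA-seq libraries of the stromal vascular fraction, which holds the cells of fat other than adipocytes. Barcodes with 500 or more genes and no more than 10% of UMIs (unique molecular identifiers, 1 for each RNA molecule captured) from mitochondrial genes were kept, and B lineage cells were chosen by marker UMIs: at least 3 UMIs over Cd79a, Cd79b and Ms4a1 with at least 1 of Cd79a, no UMI of Cd3d, Cd3e or Cd3g, fewer than 10 of Dcn and at most 2 over C1qa, C1qb and C1qc. This rule kept 176 of 4839 barcodes. The control library was prepared from male C57BL/6 littermates with floxed Pgam1 alleles and no Adipoq-Cre, which the labels call wildtype, at 13 weeks of age. The Adipo-Pgam1 KO library was prepared from male C57BL/6 mice of 13 weeks that carried the same floxed alleles together with Adipoq-Cre, in which the adiponectin promoter drives Cre in adipocytes. Each genotype was represented by 1 library, and the number of mice behind a library was not given, so no difference between genotypes has a replicate check and none was tested. Intervals beside shares, levels and ratios are 95% intervals that cover counting error alone, and brackets beside a median of UMIs per cell give the lowest and highest cell.

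B cells carry a membrane immunoglobulin whose heavy chain (Ighm for IgM, Ighd for IgD) pairs with a kappa (Igkc) or lambda (Iglc) light chain, and which signals through Cd79a and Cd79b. Naive follicular B cells show IgM together with IgD, Cd23 (Fcer2a) and complement receptor 2 (Cr2), while innate-like B-1 cells, which are common in the peritoneal cavity and in visceral fat, show high IgM, low IgD and little Cd23. Plasma cells secrete antibody, with Jchain joining IgM or IgA monomers.

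The control library held 136 B lineage cells among 3881 kept barcodes, a share of 3.504% (2.95 to 4.13). The Adipo-Pgam1 KO library held 40 among 958, a share of 4.18% (3.00 to 5.64). The intervals of the shares overlapped. The control cells summed to 672995 UMIs with a median of 4040 UMIs and 1647 genes per cell, and the KO cells summed to 279700 UMIs with a median of 4974 UMIs and 1854 genes. The median mitochondrial share was 7.83% in control and 7.17% in KO cells, near the limit of 10%, and 73 control and 17 KO barcodes that passed the gene rule lay outside the barcode limits. The libraries had 9 barcode sequences in common, none of them from a B lineage cell.

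The genes of the gate describe how the members were chosen and are no finding. The summed gate count per cell had a median of 20 in control (5 to 89) and 23.5 in KO cells (10 to 84), and no member lay at a sum of 3 or 4, just inside the limit. Just outside it, 2 control barcodes and 0 KO barcodes had a sum of 2. Of the control pair, 1 was a cell of 3582 UMIs with 1114 of Igkc, 436 of Igha and 249 of Jchain, but 1 of Cd79a, 1 of Cd79b and 0 of Ms4a1. A cell with plasma cell transcripts therefore lay outside the rule.

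Some members held RNA of another cell type. In control, 13 of the 136 cells passed a limit of 20 UMIs over a marker list of NK cells (4 cells), fibroblasts (2) or endothelial cells (2), or of 100 UMIs over 5 erythroid genes (5). In KO, 3 of the 40 cells did so, 1 for macrophage genes and 2 for erythroid genes. Of 10 macrophage markers, 9 were detected over both libraries, with 173 UMIs in control and 148 in KO, of which 117 came from 1 KO cell, and Lyz2 was the most abundant in KO (113 UMIs) and Apoe in control (83 UMIs). The NK list had 199 UMIs in control and 7 in KO, led by Ccl5 with 92 and 5. The fibroblast list had 461 and 87 UMIs, led by Gsn with 200 and 39, and the endothelial list 425 and 51, led in control by Fabp4 (236 against 9) and in KO by Pecam1 (171 against 42). Of 108 control cells with at least 3 Ighd UMIs, 69 had Pecam1, while Cdh5 had 7 UMIs in them, Cldn5 4 and Kdr 2. Pecam1 UMIs, spread in this way, are therefore no measure of endothelial RNA. The T cell receptor gene Trac and the adipocyte gene Adipoq had 0 UMIs in both libraries. Haemoglobin RNA was found in nearly every class of cell, with an Hbb-bs UMI in 118 of 136 control and 39 of 40 KO B lineage cells and in 89.4% and 94.0% of the T cells. Many results that rest on sums are given below also without the mixed cells and the 2 cells rich in Jchain, which left 122 control and 36 KO cells. These limits may have left some mixed cells in, since the dendritic list reached 16 UMIs in 1 control cell. In the 122 control cells, 1 cell still held 301 of the 431 Cst3 UMIs, and 1 cell held 28 of the 48 Naaa UMIs.

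The genes with the largest ratios to the other kept barcodes were mostly known B cell genes. Ranked by the smaller of the 2 libraries' ratios, the 15 leading genes were Iglc1, Ms4a1, Pax5, Mzb1, Gm43291, Vpreb3, Iglc2, Cd79a, Iglc3, Ly6d, Igkc, Fcer2a, Pou2af1, Fcmr and Cr2. Of these, Ms4a1 and Cd79a were gate genes, high by the rule, and the ratios of the others describe the same cells. Pax5, the transcription factor that maintains B cell identity, stood at 593 CPM (UMIs of the gene in 1000000 UMIs) in control and 558 CPM in KO B lineage cells against 1.42 and 0.742 CPM in the others. Ebf1, an identity gene also expressed by adipose stromal cells, was less confined, with 1082 and 1083 CPM against 311 and 242 CPM. Of the 20 identity genes, 6 had at least 50 UMIs over the T cells of both libraries. The label of B lineage cells was kept on the levels of Pax5, Ighm and Ighd, which the gate did not use.

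**Figure D1:**
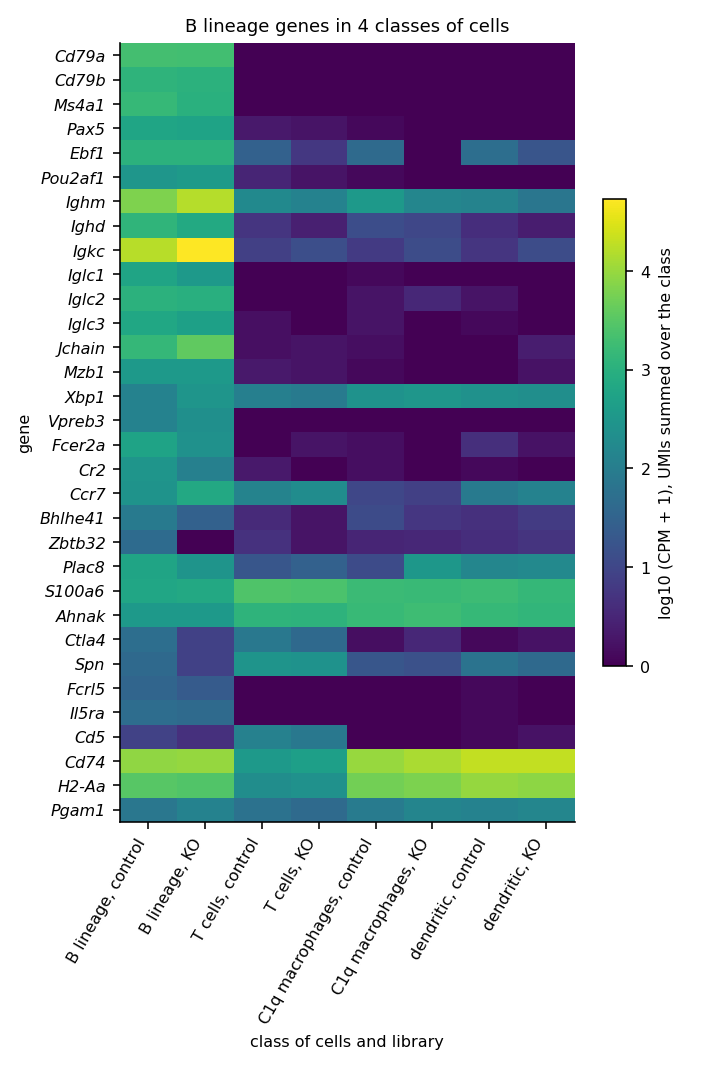
Level of B lineage genes (rows) in 4 classes of cells of each library (columns), as log10 of CPM + 1 from UMIs summed over a class, with brighter colours for higher levels. Pax5 and the Iglc genes are bright in the B lineage columns and near 0 in T cells, while Ighm is also seen in the other classes.

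The heavy chains were those of cells that had not switched class. Ighm (chr12:113418558-113422730, minus strand, GRCm38) was detected in 135 of 136 control cells and 40 of 40 KO cells, with a median of 15 UMIs per cell in control (0 to 1638) and 22.5 in KO (5 to 3185). Ighd (chr12:113406604-113416324, minus strand) had a median of 5 UMIs in control (0 to 28) and 4 in KO (0 to 16). Both were detected in 124 control cells, or 91.2% (85.1 to 95.4), and in 37 KO cells, or 92.5% (79.6 to 98.4). Ighm without Ighd was seen in 11 control and 3 KO cells, and 1 control cell had neither. T cells of the same libraries had an Ighd UMI in 2.22% and 0.543% of cells at median depths of 4644 and 6579.5 UMIs, so the share in B lineage cells lay far above this background in both libraries.

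**Figure D2:**
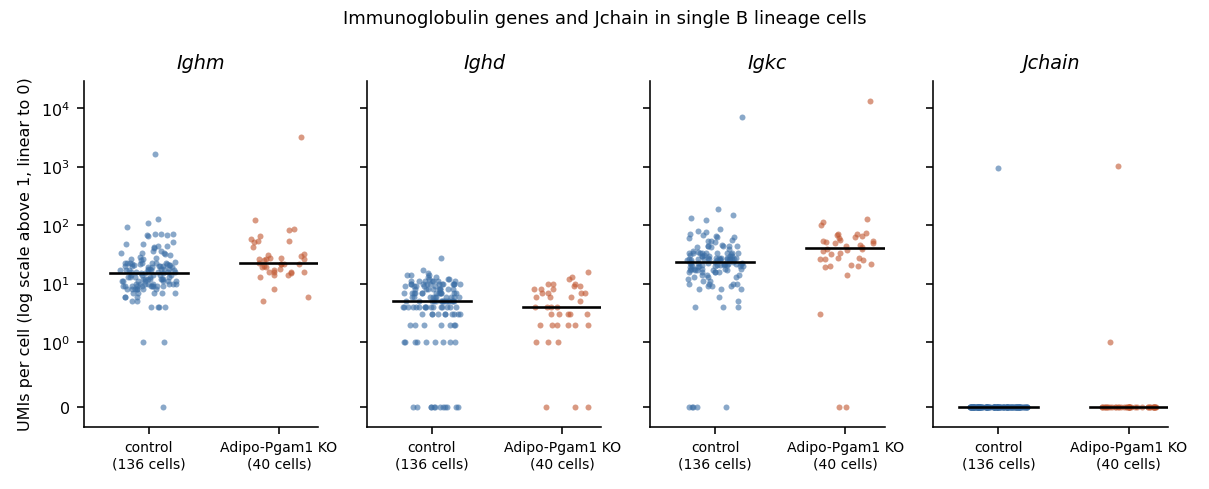
UMIs of Ighm, Ighd, Igkc and Jchain in each B lineage cell (points) of the control (136 cells) and Adipo-Pgam1 KO (40 cells) libraries, on an axis that is logarithmic above 1 and linear to 0, with the median as a line. In each library 1 cell stands far above the rest for Ighm, Igkc and Jchain, with 967 Jchain UMIs in control and 1035 in KO.

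Switched classes were rare. Ighg1 had 11 UMIs in 1 control cell, Ighg3 26 UMIs in 5 control cells and Igha 20 UMIs in 6 control cells. In KO cells Ighg3 had 1 UMI and Ighg1 and Igha none, and Ighg2b, Ighg2c and Ighe had 0 UMIs in both libraries. At least 3 UMIs summed over the switched classes were found in 5 of 136 control cells (3.68%, 1.20 to 8.37). In KO they were found in 0 of 40 cells, for which the upper bound was 8.81%. Of the 5 control cells, 3 had fewer than 3 Ighm UMIs, and 1 of these 3, with 14 UMIs of Igha, was a mixed cell. Another of the 5 had 1 UMI of Ighg3 and 2 of Igha beside 68 of Ighm.

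A single cell in each library was rich in Jchain. The control cell had 967 Jchain UMIs of 19640 in all, with 1638 of Ighm and 7118 of Igkc, and immunoglobulin genes with Jchain made up 50.0% of its UMIs. The KO cell had 1035 Jchain UMIs of 28264, with 3185 of Ighm and 13293 of Igkc, and these genes made up 62.9%. Both were of the IgM class, with 0 and 1 UMIs of Ighd and none of a switched class. Genes of antibody secretion were found in both, with 28 and 49 UMIs of Xbp1, the transcription factor of the secretory programme, 11 and 7 of Prdm1, 6 and 25 of Irf4, and 33 and 56 of Mzb1, a chaperone of IgM assembly. Ms4a1 had 4 UMIs in the control cell and 0 in the KO cell. Variable gene segments could be named in both, with 95 UMIs of Igkv1-135 in the KO cell and 10 of Igkv15-103 in the control cell. Only 1 other B lineage cell, in KO, had a Jchain UMI. Over all cells of a library, immunoglobulin genes with Jchain took 2.84% of UMIs in control and 7.62% in KO.

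Kappa was the main light chain. Igkc (chr6:70726435-70726966, plus strand) had a median of 24 UMIs in control (0 to 7118) and 41 in KO cells (0 to 13293). Lambda-type cells, with 0 UMIs of Igkc and at least 10 over Iglc1, Iglc2 and Iglc3, numbered 5 of 136 in control (3.68%, 1.20 to 8.37) and 2 of 40 in KO (5%, 0.611 to 16.9). All cells with 0 UMIs of Igkc were of this kind. By a wider limit, cells with more summed Iglc than Igkc UMIs numbered 14 of 136 in control (10.3%, 5.74 to 16.7). In KO they numbered 2 of 40 (5%, 0.611 to 16.9). The order of the libraries thus depended on the limit, and the intervals overlapped under both. Yet an Iglc UMI was also found in 119 of the 120 control cells and 37 of the 37 KO cells with at least 10 Igkc UMIs, at medians of 6 and 8 UMIs. In T cells Iglc2 had 0 UMIs in both libraries, while C1q macrophages had 3 in control and 1 in KO, and dendritic cells 3 and 0. A UMI of a variable segment was found in 27 control and 8 KO cells for Ighv, and in 20 and 10 for Igkv.

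The lambda constant genes Iglc2 and Iglc3 are close copies, which may limit how reads are assigned between them. Read assignment was not tested, and Iglc1 was not compared. The coding sequences of Iglc2 (chr16:19198396-19200351) and Iglc3 (chr16:19065230-19065681), both on the minus strand of GRCm38, differed at 11 of 314 aligned bases, an identity of 96.5%. A stretch of 90 bases from each is shown 5′ to 3′ because it holds 7 of these differences, marked by capitals, from chr16:19198749-19198838 for Iglc2 and chr16:19065578-19065667 for Iglc3 (GENCODE annotation).
Iglc2: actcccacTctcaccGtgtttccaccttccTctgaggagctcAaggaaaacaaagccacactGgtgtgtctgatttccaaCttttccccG
Iglc3: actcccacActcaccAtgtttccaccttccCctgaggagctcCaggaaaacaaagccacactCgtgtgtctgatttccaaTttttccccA
The levels of these genes, at 1077 CPM in control and 944 CPM in KO for Iglc2 and at 654 and 479 CPM for Iglc3, are uncertain to the extent that reads were split between copies.

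Ighm RNA was not confined to B lineage cells, and its proportion to Igkc differed between classes. UMIs were compared directly here, since each counts 1 molecule at its 3′ end whatever the length of the gene. B lineage cells had 0.400 Ighm UMIs for each Igkc UMI in control and 0.293 in KO, and 0.683 and 0.707 without the mixed and Jchain-rich cells. T cells had 24.8 and 9.88, C1q macrophages 65.1 and 12.4, and dendritic cells 29.4 and 6. Of T cells, 44.7% in control and 40.8% in KO had an Ighm UMI, as did 78.5% and 53.7% of C1q macrophages, a class with median depths of 7570 and 9474 UMIs. The proportions in these classes lay above that of B lineage cells in both libraries, and the source of their Ighm RNA was not tested.

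Genes of innate-like B cells differed in how widely they were detected. Plac8, S100a6 and Ahnak were found in 58.8%, 54.4% and 51.5% of control and 47.5%, 35% and 42.5% of KO cells, and the other members of the list in fewer than 20% of cells in each library. Bhlhe41, a transcription factor needed for B-1a cells, had 57 UMIs in 23 of 136 control cells and 8 UMIs in 2 of 40 KO cells. Zbtb32, a repressor known from innate-like and memory B cells, had 30 UMIs in 13 control cells and 0 UMIs in KO cells. Spn, which encodes Cd43, had 27 and 2 UMIs, Ctla4 34 and 2, and Fcrl5 23 and 6. Cd5, the surface marker of B-1a cells, had 5 UMIs in control and 1 in KO, against 118.6 CPM in control T cells, where it is a usual marker. Il5ra, the receptor of the B-1 growth factor IL-5, stood close in both libraries, at 49.0 CPM (33.8 to 68.9) in control and 42.9 CPM (22.2 to 74.9) in KO, and had 0 UMIs in T cells and C1q macrophages. Plac8, a gene of myeloid and B-1 cells, stood at 588 CPM (532 to 649) in control and 282 CPM (224 to 352) in KO. Itgam, which encodes Cd11b, and Cd9 had 20 UMIs each in KO, of which 85% and 95% lay in 1 cell. S100a6 and Ahnak were found at 618 and 340 CPM in control and 726 and 368 CPM in KO, below T cells (2716 and 1181 CPM in control), and between KO and control S100a6 had a ratio of 0.23 on the log2 scale (-0.02 to 0.48), or -0.19 (-0.50 to 0.11) without the mixed and Jchain-rich cells. Of the 12 genes of the list, 5 had at least 50 UMIs.

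Control cells with a Bhlhe41 or Zbtb32 UMI differed from the other control cells in many genes, a comparison that was chosen after the values were seen. They numbered 26 of 136 (19.1%, 12.9 to 26.7), 10 of which had both, against 2 of 40 in KO (5%, 0.611 to 16.9). The intervals overlapped. The detected cells were deeper, with a median of 6358 UMIs against 3835, and when each cell was thinned to 1000 UMIs 9 control cells and 0 KO cells had a UMI of either gene. In T cells the shares were 2.22% and 1.09%, and in C1q macrophages 7.99% and 4.88%. The KO share in B lineage cells thus lay close to that in KO macrophages, and whether the UMIs in macrophages are background was not tested.

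CPM scales for depth but does not undo the choice of deeper cells by detection, and ratios of this split with thinned cells are not given. In CPM the detected control cells had more Plac8 (1348 against 261 CPM, log2 ratio 2.37, 2.05 to 2.69), S100a6 (1382 against 289 CPM, 2.26, 1.96 to 2.56), Ctla4 (29 against 5 UMIs, 3.75, 2.37 to 5.48) and Fcrl5 (20 against 3 UMIs, 3.95, 2.20 to 6.35). They had less Ighd (291 against 1620 CPM, log2 ratio -2.48, -2.88 to -2.09), Fcer2a (114 against 731 CPM, -2.69), Ccr7 (39.5 against 366 CPM, -3.21) and Cr2 (-1.83). Vpreb3 had 0 UMIs in the 26 cells and 84 in the 110 others, and Ccr6 had 0 and 41. Low Ighd and Fcer2a are known features of B-1 cells. Spn (0.22, -1.12 to 1.44), Cd9 (0.94, -0.20 to 2.04), Il5ra (0.41, -0.75 to 1.496) and Itgam (1 against 5 UMIs) had intervals that held 0, and Cd5 had 4 against 1 UMIs, so the other members of the innate-like list were not all higher. The gate genes were close, at 0.22 for Ms4a1 and -0.26 for Cd79a, while Pax5 was lower (-0.80, -1.18 to -0.44). Ighm was higher by 1.99, but by 0.90 (0.79 to 1.02) without the mixed and Jchain-rich cells, as 58.2% of the UMIs lay in 1 cell. Igha had 17 against 3 UMIs with those cells and 3 against 3 without them. Hbb-bs was lower in the detected cells (-4.29), but 3174 of the 3447 Hbb-bs UMIs in the other cells lay in 5 cells, and the median was 3 UMIs per cell in the detected and 2 in the other cells. Without the mixed and Jchain-rich cells Hbb-bs stood at 432 and 645 CPM. The 2 KO cells showed Plac8 at 1125 against 184 CPM (log2 ratio 2.61) and S100a6 at 2728 against 491 CPM (2.47). Of their 33 Plac8 UMIs, 25 lay in 1 cell. Ighd (2 against 208 UMIs) and Fcer2a (1 against 67) were lower. Ctla4 had 0 against 2 UMIs, and the interval of Cr2 held 0 (-3.92 to 1.17). Ighm went the other way from control (-1.22, -1.42 to -1.02), but had 0.52 (0.30 to 0.74) without the mixed and Jchain-rich cells.

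**Figure D3:**
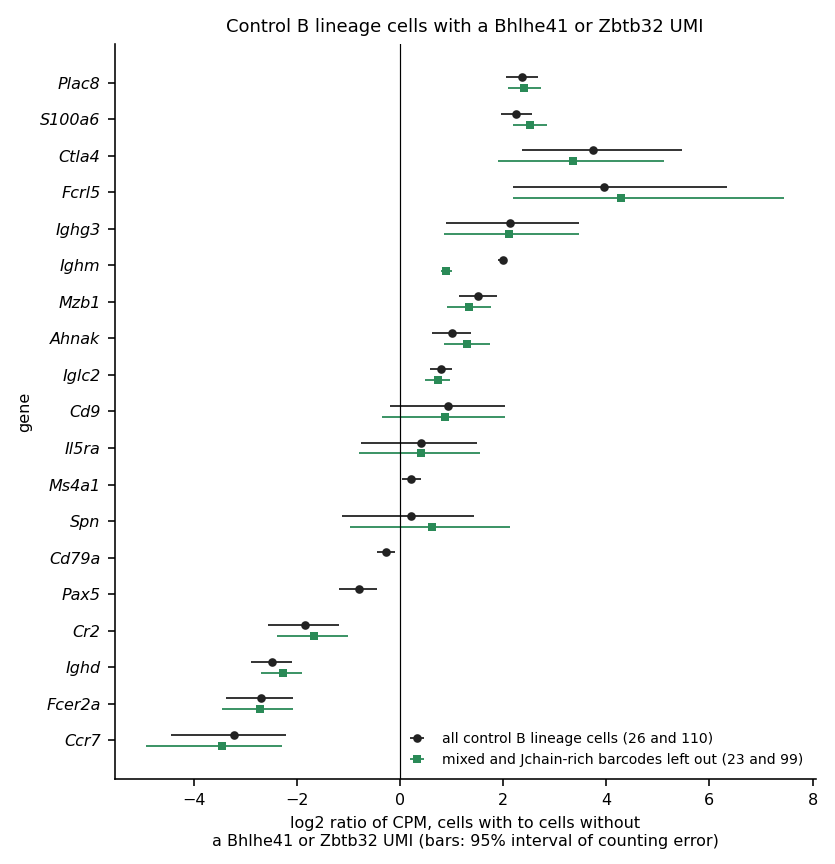
Log2 ratio of CPM between control B lineage cells with and without a Bhlhe41 or Zbtb32 UMI (x axis) for each gene (rows), with bars for the 95% interval of counting error; circles are all cells (26 and 110) and squares leave out mixed and Jchain-rich cells (23 and 99). Plac8, S100a6, Ctla4 and Fcrl5 lie above 2 in both sets, and Ighd, Fcer2a and Ccr7 below -2.

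A split by Ighd set apart many of the same genes in the control library. The 10 control cells with at least 5 Ighm and 0 Ighd UMIs (median depth 5655 UMIs) were compared with the 108 cells that had at least 3 Ighd UMIs (3893.5 UMIs). Fcer2a had 2 UMIs against 348, Cr2 0 against 169, Ccr7 2 against 160 and Cd72, an inhibitory coreceptor, 0 against 83. Plac8 was higher (log2 ratio 1.71, 1.36 to 2.06), as were Bhlhe41 (2.05, 1.07 to 3.00) and Mzb1 (1.78, 1.33 to 2.22). The Jchain-rich cell was among the 10 and held 33 of their 68 Mzb1 UMIs, and without it and the mixed cells Mzb1 had 1.41 (0.81 to 1.98) and Plac8 2.00 (1.63 to 2.36). With each cell thinned to 1000 UMIs the limits took other cells, 25 and 27. Fcer2a then had 6 UMIs against 23 (log2 ratio -1.83, -3.41 to -0.49) and Plac8 2.00 (0.76 to 3.45). Cr2, with 8 UMIs against 4 (1.11, -0.79 to 3.29), and Ccr7, with 6 against 5 (0.37, -1.60 to 2.42), turned in direction, and their intervals and that of Mzb1 (0.43, -1.06 to 1.98) held 0. These splits share cells and are not separate evidence, since 7 of the 10 cells also had a Bhlhe41 UMI. In KO, 3 and 28 cells met these limits, with 26 against 38 Plac8 UMIs and 0 against 64 of Fcer2a. Of the 26 Plac8 UMIs, 25 lay in 1 cell, which also had a Bhlhe41 UMI, so no ratio is given.

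KO and control cells were then set side by side for all genes. Among 2784 genes with at least 50 UMIs over both libraries, 105 (3.77%) were at least 2-fold higher in KO and 91 (3.27%) at least 2-fold lower, with a median log2 ratio of -0.06. Single cells made up much of the higher side: for 44 of the 105 genes, 1 KO cell held more UMIs than all others together. With each gene's top cell left out in both libraries, 38 of the 105 stayed at least 2-fold higher with over 3 KO UMIs. Another 19 had 3 or fewer KO UMIs left. For the lower side, 1 control cell held more UMIs than all others together for 3 of 91 genes. With each gene's top cell left out in the same way, 90 of the 91 were still at least 2-fold lower. This step takes 1 of 40 KO but 1 of 136 control cells from each gene, so it tends to lower the ratios. It is therefore little check on the lower genes, and the 38 and the 90 cannot be compared. Without the mixed and Jchain-rich cells, 58 of 2356 genes (2.46%) were higher and 60 (2.55%) lower, with a median of 0.02, and 33 of the higher and 46 of the lower genes were common to both sets. In T cells of the same libraries, 105 of 6960 genes (1.51%) were higher and 180 (2.59%) lower.

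**Figure D4:**
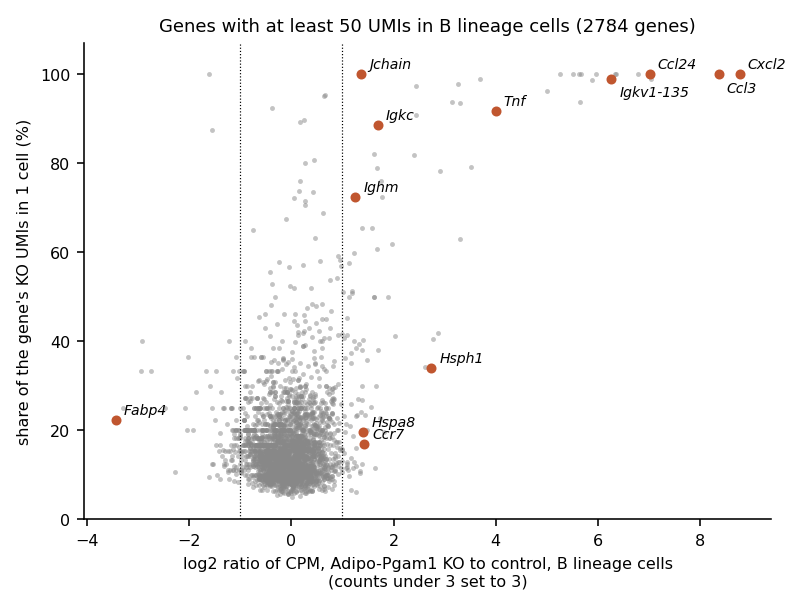
Log2 ratio of CPM between KO and control B lineage cells (x axis) and the share of a gene's KO UMIs that lay in 1 cell (y axis, %) for 2784 genes (points), with dotted lines at 2-fold. Cxcl2, Ccl3 and Ccl24, at the far right, had 100% of their KO UMIs in 1 cell, while Ccr7 and Hspa8 lie below 20%.

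The 10 genes with the largest KO to control ratios were Cxcl2, Ccl3, Ccl9, Ccl4, Ccl24, Il1rn, Mmp19, Ccl2, Igkv1-135 and Slc7a11. For 9 of these 10, over 90% of the KO UMIs lay in the KO cell with macrophage genes, which had 22797 UMIs with 551 of Cxcl2, 414 of Ccl3, 274 of Ccl4, 162 of Ccl24, 139 of Il1rn and 110 of Lyz2, beside 6 each of Cd79a, Cd79b and Ms4a1 and 27 of Igkc. The remaining gene, Igkv1-135, belonged to the Jchain-rich cell. Tnf, another cytokine gene with a high ratio (4.004, 2.98 to 5.20), had 91.7% of its KO UMIs in 1 cell and a ratio of 0.42 (-1.77 to 2.32) without the mixed cells. The 10 genes with the smallest ratios were Fabp4, AW112010, Ccr2, Ccl5, Naaa, Tk2, Rps12-ps3, Sparc, Evi2a and Gm10073. Fabp4, a lipid carrier of adipocytes and endothelial cells, had 236 UMIs in control, 150 of them in 1 cell, and 9 in KO. Naaa had 49 UMIs in control and 3 in KO, and 28 of the 49 lay in 1 cell that the limits for mixed cells left in. Ccl5, an NK and T cell chemokine, had a log2 ratio of -2.93 with the NK-mixed cells. Without all mixed and Jchain-rich cells it had 7 UMIs in control and 5 in KO. The ratio was then 0.93, with an interval that held 0 (-1.07 to 2.80), so its direction was not settled. Tk2, the mitochondrial thymidine kinase, was spread over 44 control cells (54 UMIs) and 4 KO cells (4 UMIs), with -2.49 (-4.42 to -1.05). Genes of other lineages were among the lower ones. Of the 2 fibroblast genes with at least 50 UMIs, Dcn was limited by the rule to fewer than 10 UMIs per cell. Its log2 ratio (-1.63) is therefore a description only. Gsn, which the rule did not use, was past 2-fold lower (-1.09), beside 3.27% of all genes. Without the mixed and Jchain-rich cells Dcn had -1.41 and Gsn -1.01, beside 2.55% of all genes lower. In T cells the ratios of Dcn and Gsn were -1.24 and -0.73, with 4 of 6 fibroblast genes past 2-fold lower, beside 2.59% of all genes in T cells. Of 2 endothelial genes, Fabp4 was past 2-fold lower with and without those cells (-3.45 and -1.78), and it had -2.14 in T cells, while Pecam1 had -0.76 and -0.57. The part of this RNA in the other results was not tested.

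Of the immunoglobulin genes, Ighm stood at 6624 CPM in control and 15731 CPM in KO, a log2 ratio of 1.25 (1.19 to 1.31), and Igkc at 16568 and 53718 CPM, a ratio of 1.70 (1.66 to 1.73). Without the mixed and Jchain-rich cells the ratios were 0.25 (0.15 to 0.35) and 0.20 (0.12 to 0.28). In KO, 72.4% of the Ighm and 88.5% of the Igkc UMIs lay in the Jchain-rich cell, so the size of these ratios was set by 1 cell in each library. Ighd was lower in KO, at 751 against 1220 CPM (-0.70, -0.93 to -0.48), and remained so without those cells (-0.56, -0.79 to -0.33). Iglc1 had -0.71 (-1.04 to -0.39), Iglc2 -0.19 (-0.40 to 0.02) and Iglc3 -0.45 (-0.74 to -0.17). In the plasma cell list 3 of 6 genes were at least 2-fold higher, beside 3.77% of all genes, namely Jchain (1.37), Xbp1 (1.23) and Irf4 (1.63), against 1 of 5, beside 2.46% of all genes, without the Jchain-rich and mixed cells (Irf4, 1.05, 0.21 to 1.86).

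Of the 20 genes of the B cell identity list, 0 passed 2-fold, beside 3.77% higher and 3.27% lower among all genes, and their median was -0.26, beside -0.06 over all genes. At these shares a list of this size holds few or no genes past 2-fold. Pax5 had a log2 ratio of -0.09 (-0.37 to 0.18), Ebf1 of 0.00 (-0.20 to 0.20) and Ly6d of 0.11. The gate genes chose the cells, so their ratios are a description only, with -0.06 for Cd79a, -0.10 for Cd79b and -0.58 for Ms4a1, which encodes Cd20. Of 14 genes of antigen receptor signalling with at least 50 UMIs, 0 passed 2-fold and 3 lay above 0, beside 1283 of 2784 over all genes, with a median of -0.29. With the mixed and Jchain-rich cells left out 5 of 14 lay above 0, beside 1212 of 2356. The inhibitory members Ptpn6 (-0.76, -1.18 to -0.35), Cd22 (-0.72, -1.19 to -0.27) and Cd72 (-0.90, -1.68 to -0.19) lay below 0, as did the activating kinase Btk (-0.42), while the kinase Syk lay above (0.37, 0.10 to 0.65). Without those cells the values were -0.62 for Ptpn6, -0.53 for Cd22 and -0.71 for Cd72, whose interval then held 0 (-1.51 to 0.02). MHC class II genes, by which B cells present antigen, had 0 of 10 past 2-fold, with Cd74, the invariant chain, at 0.17, H2-Aa at -0.23 and H2-Ab1 at 0.00.

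The follicular list held genes on both sides. Fcer2a was lower in KO cells, at 243 against 545 CPM (-1.17, -1.56 to -0.79), and was detected in 22 of 40 against 97 of 136 cells. Ccr7, the chemokine receptor for entry into T cell zones, was higher, at 719 against 267 CPM (1.43, 1.13 to 1.72), and was detected in 36 of 40 KO (90%) and 81 of 136 control cells (59.6%), or in 50% and 27.9% when each cell was thinned to 1000 UMIs. Cxcr4, the receptor of the retention chemokine Cxcl12, was found in 38 of 40 KO and 71 of 136 control cells (95% and 52.2%, thinned 57.5% and 22.8%), with 579 against 241 CPM (1.27, 0.94 to 1.59). Both ratios were larger without the mixed and Jchain-rich cells (1.65 and 1.48). Cxcr5 had 0.66 (0.14 to 1.16) and Klf2, which controls exit from lymphoid tissue, 0.34 (0.13 to 0.55). Of 8 follicular genes, Ccr7 was at least 2-fold higher and Fcer2a at least 2-fold lower, and without the mixed and Jchain-rich cells Fcer2a had -0.91 (-1.31 to -0.53). Of 9 trafficking genes, Ccr7 and Cxcr4 were at least 2-fold higher. Over all genes these shares were 3.77% higher and 3.27% lower. In T cells Ccr7 had 0.63 (0.36 to 0.89) and Cxcr4 0.42 (0.15 to 0.69). The difference between classes was not tested.

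Of 4 marginal zone genes with at least 50 UMIs, Cr2, the receptor for complement-coated antigen, was the 1 past 2-fold lower, beside 3.27% of all genes. Cr2 stood at 114 CPM in KO against 290 CPM in control (-1.34, -1.93 to -0.80), and its ratio was -1.39 without the mixed and Jchain-rich cells. Of the innate-like list, Plac8 (-1.06, -1.43 to -0.71) and Bhlhe41 (-1.57, -2.85 to -0.49) were past 2-fold lower among 5 genes, beside 3.27% of all genes, and without the mixed and Jchain-rich cells Plac8 had -0.87 (-1.24 to -0.51) and Bhlhe41 -1.37 (-2.65 to -0.29). Tnfrsf13b, which encodes the BAFF and APRIL receptor TACI, was lower (100.1 against 236 CPM, -1.24, -1.87 to -0.65, and -1.03 without those cells), and Tnfrsf13c, the BAFF receptor, had -0.46 (-0.87 to -0.06). Icosl, the ligand of the T cell costimulator ICOS, had -1.08 (-2.16 to -0.13) and Tlr1 -1.15 (-2.36 to -0.11), on 56 and 48 UMIs in control, and without the mixed and Jchain-rich cells their intervals held 0 (-1.86 to 0.19 and -2.13 to 0.14). Zeb2, a transcription factor of age-associated B cells, was higher (1.17, 0.76 to 1.58), and at 0.85 (0.36 to 1.33) without the mixed and Jchain-rich cells. It was the 1 gene of the 5 on the age-associated list with at least 50 UMIs. Of these 5 genes, 2 had 0 UMIs in KO, while all were detected in control. Over all 28692 genes, 18618 had 0 UMIs in KO and 16503 in control, where the cells summed to more UMIs. The 2 absences are therefore not read as a result about this list. Vpreb3, a chaperone of immunoglobulin assembly, was at 225 against 125 CPM (0.85, 0.36 to 1.34), and was detected in 22 of 40 KO and 41 of 136 control cells. With each cell thinned to 1000 UMIs Vpreb3 was detected in 20% (9.05 to 35.6) and 14.7% (9.22 to 21.8), and the intervals overlapped.

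Among the lists with at least 6 genes of 50 UMIs or more, heat shock genes had the highest median, 1.14 over 6 genes against -0.06 over all genes. Hsph1 (2.74, 1.94 to 3.61), Hsp90aa1 (1.57, 1.28 to 1.85) and Hspa8 (1.41, 1.21 to 1.61), all chaperones of protein folding, were past 2-fold higher in KO, or 3 of 6 beside 3.77% of all genes. Hspa8 stood at 1602 CPM in KO and 603 CPM in control, and Hsp90ab1 at 1859 and 1021 CPM (0.86). The ratios were as large without the mixed and Jchain-rich cells, at 2.94, 1.69 and 1.56, again 3 of 6, beside 2.46% of all genes. In T cells Hsph1 had 1.43, Hsp90aa1 0.76 and Hspa8 0.77, so these genes were higher in KO in both classes of cells. Immediate early genes, which respond within minutes to stimulation or handling, had 3 of 14 past 2-fold higher, beside 3.77% of all genes, namely Egr1 (2.03, 1.19 to 2.91), Nr4a1 (1.81, 1.16 to 2.47) and Jun (1.16, 0.50 to 1.82), though with cells thinned to 1000 UMIs Jun had -0.35. When mixed and Jchain-rich cells were left out, 2 of 12 were past 2-fold higher, Nr4a1 (1.54) and Cd69 (1.18), beside 2.46% of all genes, and the list median went from 0.73 to 0.43. Egr1 (2.28) and Jun (1.36) then had fewer than 50 UMIs. Fos had -0.19 in B lineage cells and 1.15 in T cells. Handling or dissociation of a library cannot be told apart from genotype with 1 library each.

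**Figure D5:**
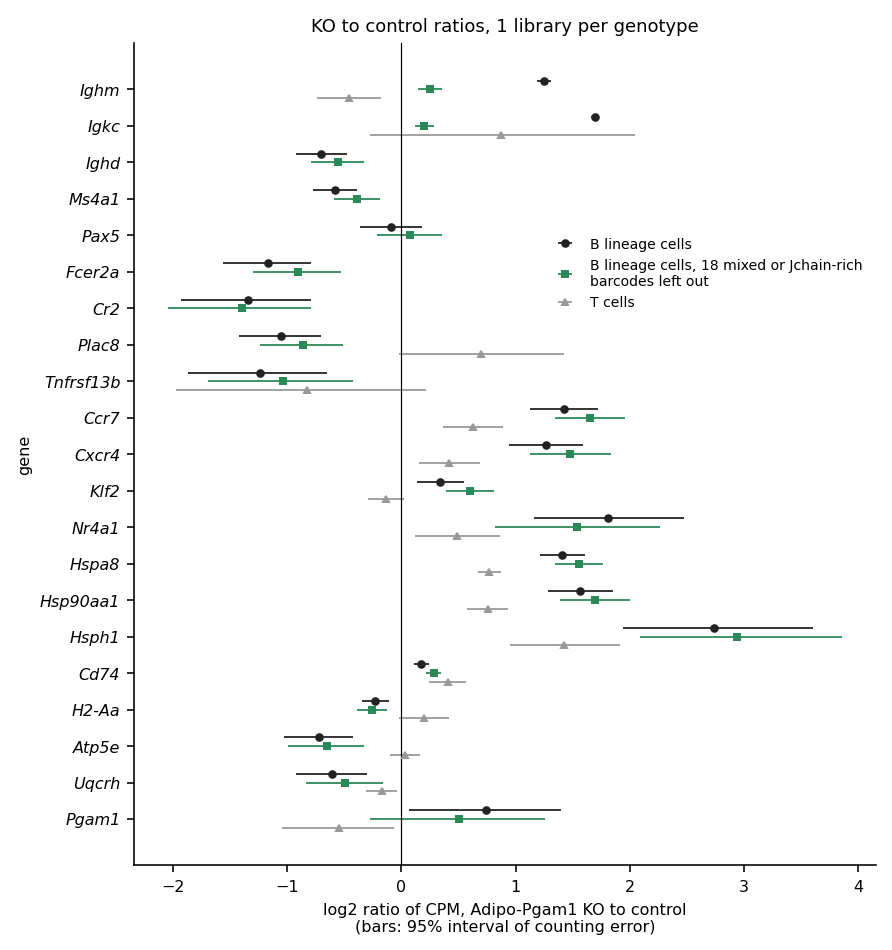
Log2 ratio of CPM between KO and control (x axis) for each gene (rows), with bars for the 95% interval of counting error; black circles are all B lineage cells, green squares leave out 18 mixed or Jchain-rich cells, and grey triangles are T cells. Ighm and Igkc move from 1.25 and 1.70 to 0.25 and 0.20 without those cells, while Ccr7, Cxcr4 and the heat shock genes stay above 1.

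Pgam1, the glycolytic phosphoglycerate mutase targeted in adipocytes (chr19:41911923-41918660), had 49 UMIs in 41 control cells and 34 UMIs in 12 KO cells, or 72.8 and 122 CPM (0.74, 0.06 to 1.40). It was thus detected in B lineage cells of both libraries, and its ratio without the mixed and Jchain-rich cells was 0.51 (-0.27 to 1.25). The ratio was -0.12 with the highest doublet scores removed, so its direction was not settled. None of 8 glycolysis genes passed 2-fold, beside 3.77% higher and 3.27% lower among all genes, a background at which a list of this size holds few or none, with Gapdh at 0.20 and Aldoa at -0.26. Of 15 respiratory chain genes, 0 passed 2-fold, which is read against the same background. Of these 15, 13 lay below 0, whereas 1283 of all 2784 genes lay above 0, and the median was -0.31 beside -0.06 over all genes. Atp5e had -0.72 (-1.03 to -0.43), Atp5l -0.65 (-1.04 to -0.27) and Uqcrh -0.60 (-0.92 to -0.30), while Atp5b, the catalytic subunit of ATP synthase, had 0.33 (-0.03 to 0.68). The T cell median for this list was -0.06.

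Genes of other stages of B cell life had few or no UMIs, apart from Bcl6, from Vpreb3 of the precursor list, described above, and from Cd38 of the memory list. Cd38, a surface enzyme that splits NAD, had 134 UMIs in control and 45 in KO, with a log2 ratio of -0.31 (-0.83 to 0.19). Mef2b, a transcription factor of germinal centre B cells, had 0 UMIs in both libraries, and Bcl6, the germinal centre factor, had 56 and 12 UMIs. The precursor genes Vpreb1, Vpreb2, Igll1, Rag2 and Dntt had 0 UMIs, and Rag1 4 in control. Mki67, which marks dividing cells, had 3 UMIs in control and 1 in KO, and Cdk1 had none. Il10, the cytokine of regulatory B cells, had 1 UMI in control and 2 in KO, and Tlr9, which senses CpG DNA, 0 in both. With 672995 and 279700 UMIs in the B lineage cells, low levels of these genes could have been missed.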

How the data were processed

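The 2 libraries were made with the 10x Chromium 3′ kit and processed by the authors with Cell Ranger 3.0.1 on mm10. The authors deposited unnormalized UMI counts per gene and barcode for 8522 control and 2730 KO barcodes, with 42859406 and 13821581 UMIs over 28692 genes. Counts of the cells kept by the rule were summed per library and divided by the summed total (CPM). Intervals were exact Poisson for CPM, Clopper-Pearson for shares and conditional binomial for ratios, and they cover counting error only. Ratios between genotypes needed 50 UMIs over both libraries, and for alternatives the limit was 10 UMIs. Counts under 3 were set to 3 in rankings, medians and counts of genes past 2-fold. No ratio is given where both counts were at most 3. T cells, C1q macrophages and dendritic cells were chosen by marker UMIs. Doublets were not removed in the main results. Scrublet (scanpy 1.11.5) was an alternative and left 130 control and 37 KO cells. Python 3.11.15, scipy 1.17.1, R 4.3.3 and edgeR 4.0.16 (TMM factors) were used, and the ratio code was tested on simulated data.

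The members and gene lists were chosen with earlier results of these data known. Named genes were the gate genes, constant immunoglobulin genes, Jchain, the innate-like list, Pgam1, the members of 36 lists past 2-fold or with most UMIs, the 10 largest and 10 smallest ratios, and the 15 leading genes. Genes outside this rule were chosen after their values were seen: those of the Bhlhe41 or Zbtb32 split, of single cells, of signalling and of absent stages. Results for some genes of the lists are not reported here.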

Additional observations from a re-analysis of the deposited data

Results flagged for a closer look

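Barcodes outside the analysed set also held B lineage RNA. In control, 73 barcodes passed the gene rule but had over 10% mitochondrial UMIs, and they held 1277 Ighm and 1765 Igkc UMIs, with Ighm in 98.6% of them. In KO, 17 barcodes did so, 2 of which also had fewer than 500 genes, with 367 Ighm and 440 Igkc UMIs and Ighm in 100% of them. These barcodes are set beside 136 and 40 analysed cells.

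The KO to control log2 ratio of Ighm was 1.25 in B lineage cells and -0.45 in T cells, so that the classes lay on opposite sides of 0. With 1 library per genotype this difference was not tested. Without the mixed and Jchain-rich cells the ratio in B lineage cells was 0.25.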

How the results depend on the processing

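No paired analysis was possible because each genotype had 1 library and no result came from a test between samples. Of 1187 alternative values for 93 results, 942 stayed within the counting interval or, for counts of genes, within 1.5 times, 230 moved and 15 changed sign. The alternatives without mixed cells, without mixed and Jchain-rich cells together, and without the top cell were chosen after the data were seen. The alternative without Jchain-rich cells alone was planned.

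Under limits of 1000 genes and 5% mitochondrial UMIs only 5 control cells and 1 KO cell remained, and 44 of the moved values and 8 of the sign changes came from there: B lineage shares of 0.272% and 0.233%, Ighd in 60% and 100%, Ighm per Igkc of 0.235 and 0.240, Bhlhe41 or Zbtb32 in 40% and 0%, ratios of 1.82 for Ighm, -1.90 for Ighd and 1.80 for Igkc, 11 genes at least 2-fold higher, and reversed ratios for Klf2 (-2.83), Cxcr4 (-0.51), Cd74 (-2.05), Junb (-1.20), Hspa8 (-2.51), Hsp90aa1 (-1.09), Hsp90ab1 (-1.36) and, in the Ighd split, S100a6 (-1.76). With C1q and Dcn at 0, leaving 45 and 25 cells, the shares were 1.16% and 2.61%, Ighm per Igkc 0.296 and 0.277, the ratios of Ighm, Ighd and Igkc 0.99, -1.07 and 1.09, the genes past 2-fold 23 higher and 29 lower, and S100a6 in the Ighd split -0.60. With 200 genes and 20% mitochondrial UMIs, Ighm per Igkc was 0.442 and 0.307. A gate sum of 2 gave 0.364 in control and an Igkc ratio of 1.605.

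Without the Jchain-rich cells Ighm per Igkc was 0.699 and 0.702, and the ratios of Ighm and Igkc 0.16 and 0.16. Without mixed cells those ratios were 1.32 and 1.74, 55 genes were higher, and Ccl5 reversed to 0.80. Without both, Ighm per Igkc was 0.683 and 0.707, the ratios 0.25 and 0.20, and the genes past 2-fold 58 and 60. Ccl5 then had 0.93, with an interval that held 0 (-1.07 to 2.80). Without the top cell of each gene the ratios were 0.052 and 0.048, with 22 genes higher and 152 lower when genes were selected again. With doublet scores removed they were 1.41 and 1.86, with 45 genes higher and Pgam1 at -0.12. With each cell weighted equally they were 0.68 and 1.09, with Pgam1 at -0.018. With cells thinned to 1000 UMIs the ratios of Ighm, Ighd and Igkc were 0.61, -0.48 and 1.11, Bhlhe41 or Zbtb32 was found in 6.62% and 0%, and Jun (-0.35) and Evi2a (0.35) reversed. The Igkc ratio was 1.74 with TMM factors, 1.75 with median-of-ratios factors and 1.77 without immunoglobulin genes in the totals, where Ighm was 1.32. Minimums of 20 and 100 UMIs gave 306 and 39 genes higher and 420 and 28 lower. The cause of these changes was not tested, beyond the fewer cells or genes that an alternative leaves. Depth limits all statements on genes with few UMIs, and 40 KO cells limit each share.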

Other observations

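Other genes that were chosen after their values were seen also set apart the 26 control cells with a Bhlhe41 or Zbtb32 UMI. Ccnd2, a cyclin of the G1 phase, had 104 UMIs in them against 47 in the 110 others (log2 ratio 2.36, 1.85 to 2.89), and Zbtb20, a transcription factor, 221 against 126 (2.03, 1.70 to 2.35). Satb1, a chromatin organiser, had 3 against 163 UMIs (-4.55, -6.84 to -2.98). In the 2 KO cells Ccnd2 had a log2 ratio of 2.05 (1.38 to 2.69), Zbtb20 0.64 (-0.26 to 1.45), an interval that held 0, and Satb1 0 UMIs against 105.

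Without the mixed and Jchain-rich cells, the largest KO to control ratios were those of Hsph1, Dnaja1, Sik1, Hsp90aa1, Nfkbid, Ccr7, Erdr1, Gm11808, Hspa8 and Nr4a1. Dnaja1, a cochaperone of Hspa8, had 1.90 (1.47 to 2.33) and Sik1, a salt-inducible kinase, 1.87 (1.21 to 2.54), with 1.08 and 1.04 in T cells. Gm11808 and Erdr1 were also higher in T cells (1.88 and 1.94).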
